A study of Mus musculus with 6 samples.

Results

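The transcript levels of p53 (Trp53) and of 9 of its direct target genes were examined in murine embryonic stem cells (ESCs) in which cohesin or condensin subunits had been knocked down. The 10 genes, Trp53, Mdm2, Cdkn1a, Ccng1, Pmaip1, Bbc3, Bax, Trp53inp1, Phlda3 and Zmat3, were taken by name from 21409 genes. In this total a transcript without a symbol counts as a gene of its own. Each of the 10 is represented by its RefSeq transcript with the most counts over the 6 libraries. All 10 passed the count filter, as did 14843 genes in all, with 1273 to 11226 counts per gene and library. The comparisons address whether depleting either complex is accompanied by a p53 response.

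p53 is a transcription factor that is held at low protein levels in unstressed cells, mainly because the ubiquitin ligase MDM2 marks it for degradation. DNA damage and other stresses stabilise the p53 protein, which then binds its target genes and raises their transcription. The targets include the cell cycle inhibitor p21 (Cdkn1a), proapoptotic genes and, as negative feedback, Mdm2 itself. Because p53 is regulated mostly as a protein, its activity is usually read from its targets rather than from the level of its own mRNA. Cohesin, which contains SMC1, holds sister chromatids together and connects enhancers with promoters. Condensin compacts mitotic chromosomes, and CAPH2 belongs to condensin II whereas SMC2 is shared by condensin I and condensin II.

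V6.5 (C57BL/6-129) ESCs, a line maintained on irradiated mouse embryonic fibroblasts and grown off them for 1 passage, were infected with lentiviral shRNA constructs and selected with 0.5 and then 1 µg/ml puromycin. The study's methods give another puromycin concentration, and every group, the control included, went through infection and selection. The groups were a control hairpin against GFP (1 library), a hairpin against Smc1 (SMC1, 1 library), 2 hairpins against CapH2 (CAPH2 #1 and CAPH2 #2, 1 library each) and 2 against Smc2 (SMC2 #1 and SMC2 #2, 1 library each). RNA from 652000 cells per library received ERCC synthetic RNAs before sequencing. All knockdowns are compared with the same single GFP library.

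To show what p53 could bind near these genes, the mm9 genome was searched from 3000 bases before to 3000 bases after each transcript start for the p53 consensus, a 10-base unit repeated without a spacer, allowing up to 2 mismatches over its 20 bases and none at the invariant C and G of each unit. The consensus is palindromic, so both strands are covered. Each match is printed in capitals with 5 flanking bases on either side, on the strand of its gene, distances run from the transcript start to the middle of the match, and exons and introns are those of GENCODE on the same build.
Cdkn1a, chr17:29227873-29227892, plus strand, 2834 bases before the start and outside the gene, 1 mismatch: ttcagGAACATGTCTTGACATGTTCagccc
Ccng1, chr11:40568964-40568983, minus strand, 185 bases before the start and outside the gene, 1 mismatch: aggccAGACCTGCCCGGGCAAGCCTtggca
Ccng1, chr11:40568438-40568457, minus strand, 341 bases after the start and in an intron, 1 mismatch: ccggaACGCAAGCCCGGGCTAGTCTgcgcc
Zmat3, chr3:32263253-32263272, minus strand, 1325 bases after the start and in an intron, 0 mismatches: gtgagAAACAAGCCCAGGCATGTCTtggga
Bax, chr7:52721944-52721963, minus strand, 315 bases after the start and in an exon, 2 mismatches: cccccGGGCAGGCCCGGGCTTGTCGctggc
A match with at most 1 mismatch was present at 3 of the 9 genes searched here (Cdkn1a, Ccng1 and Zmat3) and at 0.967% of the 21409 genes. With up to 2 mismatches these figures were 4 of 9 and 6.06%. No match at this threshold was present in the window of Trp53, Mdm2, Bbc3, Trp53inp1 or Phlda3, and the sequence at Pmaip1 is not shown here. A match describes the sequence and is not evidence of binding. Zmat3, whose match was perfect, had similar RPKM values in all 6 libraries, whereas Cdkn1a and Ccng1, each with 1 mismatch, did not, as described below. Mdm2, Trp53inp1 and Phlda3 had no match at this threshold and, like Cdkn1a and Ccng1, were lowest in the GFP library. Bax, with 2 mismatches, ran from 269 to 326 in RPKM. The relation of matches to levels was not tested.

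The total count over all transcripts was between 25467427 and 31337313 per library, of which ERCC RNAs made up 0.948% to 1.77%. RPKM, the read count scaled to exon length and library size, is the level used throughout, and intervals around ratios of RPKM are exact (Clopper-Pearson) 95% intervals that cover counting error only. The knockdowns were visible in their targets. Smc1a was at 39.9% of its GFP level in the SMC1 library (interval 37.2 to 42.8), Ncaph2 (which encodes CAPH2) at 21% with CAPH2 #1 (19.8 to 22.3) and 34.8% with CAPH2 #2 (33.0 to 36.7), and Smc2 at 70.7% with SMC2 #1 (66.9 to 74.6) and 71.9% with SMC2 #2 (68.0 to 76.0). These genes also differed from GFP outside their own knockdown. Ncaph2 was at 67.3% with SMC1 (64.5 to 70.2), which the edgeR fit described below did not call (adjusted p = 0.0685). It was at 79.6% and 80.9% with the SMC2 hairpins. Smc2 was at 157% with SMC1, 159% with CAPH2 #1 and 152% with CAPH2 #2, and Smc1a at 116% to 130% with the condensin hairpins. The part of these changes in the comparisons was not tested. All 9 ESC markers had an RPKM of at least 1 in every library, and their summed RPKM was 3817 with GFP, 2083 with SMC1 and 3169 to 3367 with the condensin hairpins. The summed RPKM of 8 fibroblast markers was 49.2 with GFP, 107 with SMC1, 80.2 with CAPH2 #1, 53.5 with CAPH2 #2, 61.9 with SMC2 #1 and 53.6 with SMC2 #2. Col1a1 was at 20.8 with GFP and 39.4 with SMC1, and the defining markers Dcn and Lum, at low levels throughout, were also highest with SMC1 (0.560 against 0.026 with GFP, and 0.125 against 0.022), with Lum at 0 counts with both CAPH2 hairpins. The 8 primitive endoderm markers summed to between 18.7 (SMC1) and 21.9 (CAPH2 #2), but their members moved in opposite directions with SMC1. Lama1 was at 13.1 with GFP and 6.47 with SMC1. The other 7 summed to 6.7 with GFP, 12.3 with SMC1 and 7.29 to 9.12 with the condensin hairpins. Among these 7, Dab2 was at 2.03 with GFP and 5.51 with SMC1 and Gata4 at 2.37 and 3.59. Sox7 was nearly level (0.654 with GFP and 0.701 with SMC1), and Gata6 alone was lower with SMC1 (0.713 with GFP and 0.505 with SMC1).

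p53 itself and its negative regulator moved in different ways. Trp53 had an RPKM of 233 with GFP, 189 with SMC1, 226 with CAPH2 #1, 217 with CAPH2 #2, 218 with SMC2 #1 and 205 with SMC2 #2. The GFP library was thus the highest of the 6 and the SMC1 library the lowest. Mdm2, the ubiquitin ligase gene, had an RPKM of 38.9 with GFP, 68.8 with SMC1, 85.4 with CAPH2 #1, 45.3 with CAPH2 #2, 51.8 with SMC2 #1 and 53.9 with SMC2 #2. Here the GFP library was the lowest and CAPH2 #1 the highest, at 2.19 times GFP (interval 2.09 to 2.3), and the other CAPH2 hairpin was below both SMC2 hairpins.

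The cell cycle targets were highest in the SMC1 library. Cdkn1a, which encodes the cyclin-dependent kinase inhibitor p21, had an RPKM of 49.1 with GFP, 111 with SMC1, 82.2 with CAPH2 #1, 51.3 with CAPH2 #2, 51.6 with SMC2 #1 and 50.8 with SMC2 #2. Its level with CAPH2 #2 and both SMC2 hairpins was within 5% of GFP by the ratio, and the counting intervals of those 3 ratios include GFP (0.979 to 1.11 with CAPH2 #2). Ccng1, which encodes cyclin G1, a partner of protein phosphatase 2A that acts on MDM2, had an RPKM of 66.9 with GFP, 167 with SMC1, 138 with CAPH2 #1, 92.9 with CAPH2 #2, 98.5 with SMC2 #1 and 86.6 with SMC2 #2. All 5 knockdown libraries were above GFP for Ccng1, from 1.30 times with SMC2 #2 to 2.50 times with SMC1.

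The proapoptotic targets did not move together. Pmaip1, which encodes the BH3-only protein NOXA, had an RPKM of 38.9 with GFP, 109 with SMC1, 69.0 with CAPH2 #1, 43.6 with CAPH2 #2, 49.2 with SMC2 #1 and 52.6 with SMC2 #2. The SMC1 library was at 2.79 times GFP (interval 2.66 to 2.93), the largest ratio among the 10 genes. Bbc3, which encodes another BH3-only protein, PUMA, had an RPKM of 47.5 with GFP, 33.5 with SMC1, 40.6 with CAPH2 #1, 39.4 with CAPH2 #2, 39.9 with SMC2 #1 and 42.6 with SMC2 #2. Bbc3 was therefore highest with GFP and lowest with SMC1, the opposite order to Pmaip1. Bax, which encodes the pore-forming effector of mitochondrial apoptosis and had the highest RPKM of the 10 genes in every library, was at 325 with GFP, 269 with SMC1, 326 with CAPH2 #1, 305 with CAPH2 #2, 312 with SMC2 #1 and 286 with SMC2 #2. Its values spanned a narrow range with SMC1 the lowest.

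Of the remaining 3 targets, Trp53inp1, which encodes a stress-induced nuclear protein that enhances p53 activity, had an RPKM of 36.4 with GFP, 70.9 with SMC1, 84.3 with CAPH2 #1, 54.4 with CAPH2 #2, 56.5 with SMC2 #1 and 59.9 with SMC2 #2. All 5 knockdown libraries were above GFP, and the lowest of them, CAPH2 #2, was at 1.49 times GFP (1.43 to 1.56). Phlda3, which encodes a repressor of AKT signalling, had an RPKM of 56.7 with GFP, 98.3 with SMC1, 94.4 with CAPH2 #1, 59.7 with CAPH2 #2, 66.5 with SMC2 #1 and 64.8 with SMC2 #2. SMC1 and CAPH2 #1 stood apart from the other 4 libraries. Zmat3, which encodes a zinc finger RNA-binding protein, had an RPKM of 31.4 with GFP, 31.4 with SMC1, 33.9 with CAPH2 #1, 29.5 with CAPH2 #2, 30.4 with SMC2 #1 and 34.0 with SMC2 #2. GFP and SMC1 lay in the middle of its values.

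**Figure D1:**
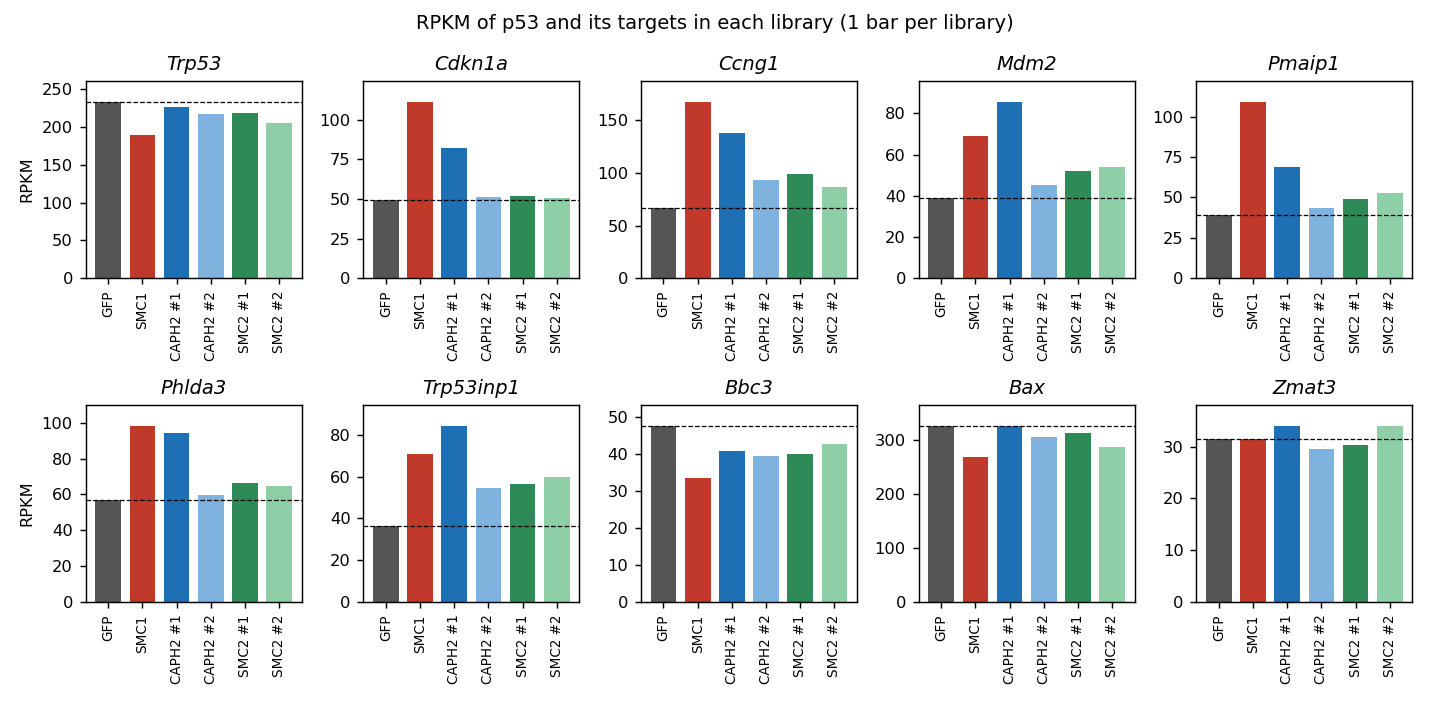
RPKM (y axis, from 0) of p53 and 9 target genes in each of the 6 libraries (1 bar per library, no error bars because each bar is 1 library), with the GFP level as a dashed line. Cdkn1a, Ccng1, Mdm2, Pmaip1, Phlda3 and Trp53inp1 are lowest in the GFP library. They are higher with CAPH2 #1 (69.0 to 138) than with CAPH2 #2 (43.6 to 92.9). Trp53, Bbc3 and Bax are lowest with SMC1 (189, 33.5 and 269), and Zmat3 runs from 29.5 to 34.0.

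The GFP library was the lowest of the 6 for 6 of the 10 genes (Cdkn1a, Mdm2, Ccng1, Trp53inp1, Pmaip1 and Phlda3), a pattern found in 27.9% of the 14821 tested genes with an RPKM above 0 in every library. SMC1 was the highest library for 4 of them (Cdkn1a, Ccng1, Pmaip1 and Phlda3), against 37.6% of all these genes. The median log2 ratio of RPKM to GFP over the 10 genes was 0.81 with SMC1, 0.74 with CAPH2 #1, 0.067 with CAPH2 #2 and 0.15 with each SMC2 hairpin, beside medians between -0.015 and 0.021 over all genes.

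The changes were then tested in 1 edgeR quasi-likelihood fit over all 6 libraries. The hairpins of a target are different reagents with 1 library each, and the residual degrees of freedom (2) come from the CAPH2 and SMC2 pairs alone. The fit also draws each gene's spread toward that of all genes, so part of the precision comes from other genes. The single GFP and SMC1 libraries are assumed to vary as the CAPH2 and SMC2 pairs do, and the p-values measure no other spread. Adjusted p-values are Benjamini-Hochberg values over the 14843 genes tested, with a threshold of 0.05.

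Knockdown of SMC1 was accompanied by higher levels of 5 of the 10 genes, among a background of 24.8% of all genes tested that were higher and 23.1% that were lower (47.9% in either direction). In edgeR, Pmaip1 rose by 1.47 ± 0.232 (log2 fold change ± standard error, adjusted p = 0.00075), Ccng1 by 1.31 ± 0.211 (adjusted p = 0.000835), Cdkn1a by 1.17 ± 0.236 (adjusted p = 0.00291), Trp53inp1 by 0.95 ± 0.221 (adjusted p = 0.00615) and Phlda3 by 0.78 ± 0.231 (adjusted p = 0.0193). Mdm2 was 0.81 ± 0.306 above GFP and just missed the threshold (adjusted p = 0.0514), and Zmat3 was level with GFP (-0.013 ± 0.118). Relative to the other genes, Bbc3 (-0.51 ± 0.106, adjusted p = 0.00317), Trp53 (-0.32 ± 0.0915, adjusted p = 0.0172) and Bax (-0.28 ± 0.101, adjusted p = 0.0426) were lower, and all 3 signs turned when libraries were scaled to the ERCC RNAs, to 0.36, 0.56 and 0.59. That scaling raised the median of all genes by 0.88, so the 3 genes stayed below the median gene. Under it 4 of the 10 genes (Cdkn1a, Ccng1, Trp53inp1 and Pmaip1) were called higher, beside 1796 of the 14843 genes tested. DESeq2 called 3 of the 10 genes higher, beside 2456 of the 14843 genes tested, with Trp53inp1 at an adjusted p of 0.078 and Phlda3 at 0.174. Mdm2 was at 0.80 without CAPH2 #1 and at 0.79 without CAPH2 #2. Whether Mdm2 was called depended on which CAPH2 libraries were in the fit. The call of Bax was lost in DESeq2 (adjusted p = 0.0646), with library totals as the scale (0.0503) and over genes with an RPKM of at least 1 with GFP (0.0878). By summed RPKM the ESC markers were lowest in the same SMC1 library. The fibroblast markers summed highest there. All 8 primitive endoderm markers summed lowest there (18.7, against 19.8 with GFP), whereas the 7 other than Lama1 summed highest. Not every marker followed its sum. Tdgf1 was lower in every condensin library (482 to 550) than with SMC1 (574). Postn and Sox17 were highest with CAPH2 #1 (1.59 and 0.329, against 1.29 and 0.299 with SMC1). Sox7 was higher in every condensin library (0.72 to 0.965) than with SMC1 (0.701). Gata6 was lowest with SMC1 (0.505 against 0.713 with GFP). The part of the markers in these values was not tested. In RNA from whole cultures a change in the share of a cell type and a change in RNA per cell cannot be told apart.

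Knockdown of CAPH2 gave fewer calls, 2 of the 10 genes, among a background of 4.74% of genes called higher and 3.44% lower (8.17% in either direction). Trp53inp1 rose by 0.93 ± 0.198 (adjusted p = 0.0279, edgeR) and Ccng1 by 0.79 ± 0.187 (adjusted p = 0.0355). Mdm2 was at 0.75 ± 0.271 (adjusted p = 0.108), Pmaip1 at 0.54 ± 0.204 (adjusted p = 0.123), Cdkn1a at 0.45 ± 0.207 (adjusted p = 0.194) and Phlda3 at 0.45 ± 0.204 (adjusted p = 0.187), and none of these 4 passed the threshold. Bbc3 (-0.25 ± 0.0896), Trp53 (-0.072 ± 0.0788), Bax (-0.041 ± 0.0874) and Zmat3 (0.013 ± 0.102) were not called either. Both genes also passed without CAPH2 #1 (0.59 and 0.49), without CAPH2 #2 (1.2 and 1.03) and without SMC2 #2 (0.94 and 0.79). Without SMC2 #1 their log2 changes were the same, 0.93 and 0.79, but neither passed (adjusted p = 0.0674 and 0.0758) and 5 genes were called in all. Neither passed in DESeq2 or with ERCC scaling. Without CAPH2 #2, 6 of the 10 genes were called higher.

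Knockdown of SMC2 gave 0 calls among the 10 genes in edgeR and in DESeq2, beside a background of 6.84% of genes called in either direction (4.14% higher and 2.69% lower). In edgeR 2 of the 10 had an unadjusted p under 0.05, beside 3957 of the 14843 genes tested. These were Trp53inp1, at 0.68 ± 0.196 (adjusted p = 0.0635), and Ccng1, at 0.48 ± 0.185 (adjusted p = 0.136). Mdm2 was at 0.45 ± 0.269 and Pmaip1 at 0.40 ± 0.203, whereas Cdkn1a was at 0.068 ± 0.205. Without CAPH2 #1, and likewise without CAPH2 #2, the changes with SMC2 were 0.45 for Mdm2, 0.48 for Ccng1, 0.69 for Trp53inp1 and 0.40 for Pmaip1. Whether these 4 genes were called depended on which CAPH2 libraries were in the fit, and the reason was not tested. Without SMC2 #1, 1 gene was called among all genes tested, and without SMC2 #2, 115.

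**Figure D2:**
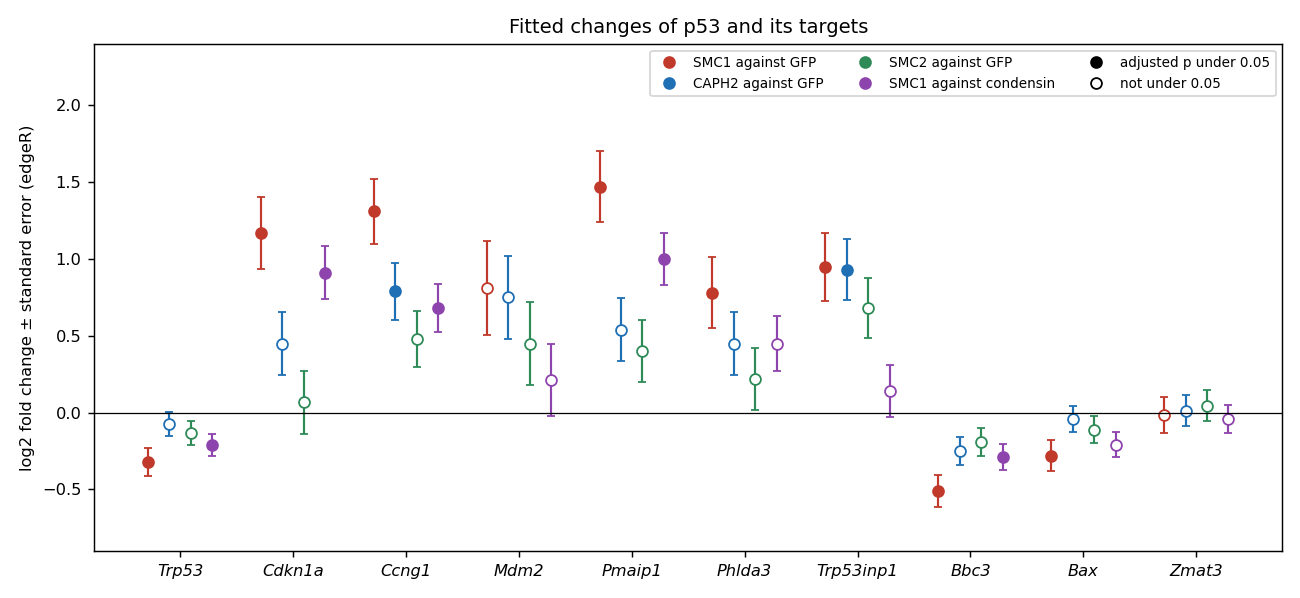
Fitted log2 fold change (y axis, edgeR) with its standard error for p53 and 9 target genes in 4 comparisons, where filled points have an adjusted p under 0.05. The SMC1 values of Pmaip1 (1.47), Ccng1 (1.31) and Cdkn1a (1.17) are the highest, and the values below 0 of Trp53, Bbc3 and Bax against GFP turn positive when libraries are scaled to the ERCC RNAs.

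SMC1 was also compared directly with the condensin knockdowns, taken as the mean of CAPH2 and SMC2. Relative to them Pmaip1 (1.00 ± 0.168, adjusted p = 0.00115, edgeR), Cdkn1a (0.91 ± 0.173, adjusted p = 0.00235) and Ccng1 (0.68 ± 0.157, adjusted p = 0.0066) were higher with SMC1, which made 3 of 10 beside 22.9% of all genes. Bbc3 (-0.29 ± 0.0855, adjusted p = 0.0196) and Trp53 (-0.21 ± 0.0734, adjusted p = 0.0393) were lower, 2 of 10 beside 20.5% (43.4% in either direction), and these signs turned to 0.12 and 0.20 with ERCC scaling, which moved the median of all genes by 0.40. With ERCC scaling the calls of Cdkn1a (adjusted p = 0.0629) and Ccng1 (0.149) ended, and in DESeq2 those of Ccng1 (0.0954), Bbc3 (0.0595) and Trp53 (0.0668). For Mdm2 (0.21 ± 0.235) and Trp53inp1 (0.14 ± 0.171) no difference between the cohesin and condensin knockdowns was called. Without CAPH2 #1, Mdm2 was at 0.46 and Trp53inp1 at 0.30, and without CAPH2 #2 they were at 0.0078 and -0.01. Without SMC2 #1 Trp53 was at -0.20. Between SMC2 and CAPH2 there were 0 calls among the 10 genes in edgeR and in DESeq2. In edgeR 1 of the 10 had an unadjusted p under 0.05 (Cdkn1a, -0.38 ± 0.166), beside 465 of the 14843 genes tested. In all, 3 of 14843 genes (0.0202%) were called, 0.0135% higher and 0.00674% lower. Without CAPH2 #2, Cdkn1a was at -0.66 and Ccng1 at -0.55 for SMC2 against CAPH2, and without CAPH2 #1 they were at -0.0025 and -0.0061. With a replicate block over the 4 condensin libraries, Cdkn1a (-0.34 ± 0.0832, adjusted p = 0.0308) and Ccng1 (-0.29 ± 0.0684, adjusted p = 0.0265) were lower with SMC2, although the numbers only name the hairpins.

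The hairpins against CAPH2 differed more in these genes than the hairpins against SMC2. CAPH2 #1 was above CAPH2 #2 in RPKM for 10 of 10 genes, beside 51.8% of all genes, and by at least 0.5 on the log2 scale for 6 of them, beside 5.88% of all genes. It was below CAPH2 #2 by as much for 0 of the 10, beside 3.64% of all genes. The 6 genes were Mdm2 (1.88-fold, interval 1.80 to 1.97), Cdkn1a (1.60-fold, 1.51 to 1.70), Pmaip1 (1.58-fold, 1.5 to 1.67), Phlda3 (1.58-fold, 1.49 to 1.68), Trp53inp1 (1.55-fold, 1.5 to 1.6) and Ccng1 (1.48-fold, 1.44 to 1.53), and these are the same 6 that were lowest in the GFP library. The other 4 differed by 1.03-fold (Bbc3) to 1.15-fold (Zmat3). Between the SMC2 hairpins 0 of 10 genes differed by 0.5 or more in either direction, beside 7.13% of all genes (2.46% higher and 4.67% lower with SMC2 #1). The ratios ran from 0.894 (Zmat3) to 1.14 (Ccng1). The difference between the CAPH2 hairpins has 1 library on each side and was not tested.

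Several other measures moved with this difference. Ncaph2 was lower with CAPH2 #1, at 0.605 times CAPH2 #2 (interval 0.562 to 0.650). The ERCC share was 1.11% with CAPH2 #1 and 1.77% with CAPH2 #2, and per ERCC count the median gene was 0.69 (log2) higher with CAPH2 #1, Ncaph2 was level (-0.047) and the 6 genes were 1.25 to 1.59 higher, so they stayed above the median gene. The fibroblast markers summed to 80.2 with CAPH2 #1 and 53.5 with CAPH2 #2, with Col1a1 at 36.1 and 22.8 and S100a4 at 9.81 and 5.33, while Dcn was at 0.170 and 0.150 and Lum at 0 in both. The part of these measures in the difference was not tested.

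**Figure D3:**
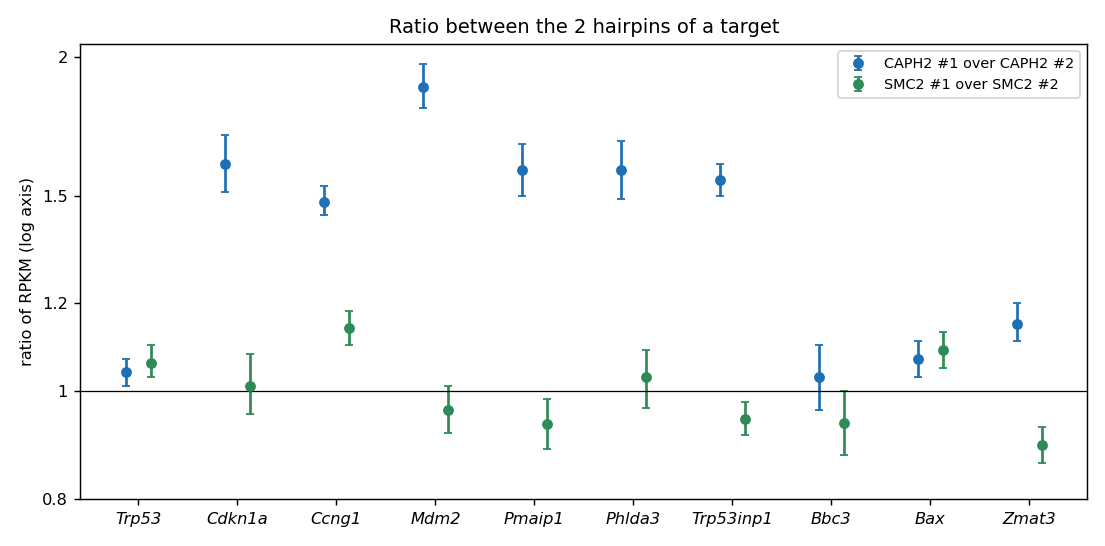
Ratio of RPKM between the hairpins of the same target (y axis, log scale) for p53 and 9 target genes, with exact 95% counting intervals. The CAPH2 ratios of Cdkn1a, Ccng1, Mdm2, Pmaip1, Phlda3 and Trp53inp1 lie between 1.48 and 1.88, and all SMC2 ratios lie between 0.894 and 1.14.

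Another 3 lists of the pathway were read from the same fit, other direct targets of p53 (38 genes), regulators and partners of p53 (27 genes, of which Trp63 was not tested) and cell cycle genes lowered downstream of p21 (14 genes). Of the 38 other targets, 13 were higher and 10 lower with SMC1, beside 24.8% and 23.1% of all genes, with a median log2 change of 0.21 beside 0.0077 over all genes tested. With ERCC scaling 5 were higher and 0 lower, beside 1796 and 108 of the 14843 genes tested. Their median was then 1.09, beside 0.88 over all genes. Thbs1, which encodes the secreted matrix protein thrombospondin 1, rose by 1.91 ± 0.220 (adjusted p = 0.000133, edgeR) and Trp53i11 by 1.03 ± 0.107 (adjusted p = 8.15e-05). Gdf15, a stress-induced cytokine gene, fell by 2.45 ± 0.280 on the log2 scale (adjusted p = 0.000129) and Pml, which encodes the scaffold of PML nuclear bodies, by 1.36 ± 0.0960 (adjusted p = 1.02e-05). Against the condensin knockdowns the other targets split evenly, 8 higher and 8 lower with SMC1 beside 22.9% and 20.5% of all genes. Thbs1 (1.30 ± 0.155) and Trp53i11 (1.03 ± 0.0789) were higher and Gdf15 (-1.76 ± 0.251) and Pml (-1.23 ± 0.0815) lower. With ERCC scaling 3 of the 38 were higher and 0 lower, beside 1272 and 148 of the 14843 genes tested.

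With CAPH2, 3 of the 38 other targets were higher beside 4.74% of all genes, Plk2 (1.5 ± 0.386, adjusted p = 0.0441, edgeR), which encodes a polo-like kinase, Ercc5 (0.64 ± 0.153, adjusted p = 0.0371), which encodes a nucleotide excision repair nuclease, and Pidd1 (0.53 ± 0.132, adjusted p = 0.0408), which encodes a death domain protein. Gdf15 was lower (-0.75 ± 0.197, adjusted p = 0.048), 1 of 38 beside 3.44% of all genes. With ERCC scaling 0 of the 38 were called in edgeR, and 3 had an unadjusted p under 0.05, beside 427 of the 14843 genes tested. With SMC2, 0 of the 38 were called in edgeR, and 9 had an unadjusted p under 0.05, beside 3957 of the 14843 genes tested. The other targets also shared the difference between the CAPH2 hairpins, since 34 of 38 were higher with CAPH2 #1 than with CAPH2 #2, with a median log2 ratio of 0.35 beside 0.0072 over all genes. Plk2, for example, had an RPKM of 10.1 with GFP, 36.3 with SMC1, 40.0 with CAPH2 #1, 16.8 with CAPH2 #2, 18.8 with SMC2 #1 and 19.5 with SMC2 #2.

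The regulators of p53 moved in another pattern, with the median log2 ratio of CAPH2 #1 over CAPH2 #2 at 0.042. With SMC1, 7 of 26 were higher and 3 lower, beside 24.8% and 23.1% of all genes. ERCC scaling put all 26 above 0, with 1 called higher and 0 lower, beside 1796 and 108 of the 14843 genes tested. The calls with TMM scaling included Hipk2, a kinase gene (1.25 ± 0.131, adjusted p = 8.39e-05, edgeR), Crebbp, an acetyltransferase gene (0.67 ± 0.124, adjusted p = 0.00174), Huwe1, a ubiquitin ligase gene (0.57 ± 0.110, adjusted p = 0.00226), and, at the other end, the checkpoint kinase gene Chek2 (-0.66 ± 0.118, adjusted p = 0.00151, but 0.22 with ERCC scaling). With CAPH2, 3 were higher and 0 lower, beside 4.74% and 3.44% of all genes, and with SMC2, 4 were higher and 1 lower, beside 4.14% and 2.69%. With ERCC scaling 0 were called with CAPH2 or SMC2 in edgeR, so the calls that follow hold for TMM scaling. Under ERCC scaling 1 and 2 had an unadjusted p under 0.05, beside 427 and 735 of the 14843 genes tested. Mdm4, which encodes the MDM2-related inhibitor of p53, rose with CAPH2 (0.55 ± 0.0948, adjusted p = 0.0197) and with SMC2 (0.61 ± 0.0949, adjusted p = 0.014), both against the same GFP library. Its RPKM was 34.0 with GFP, 32.4 with SMC1, 49.2 with CAPH2 #1, 50.3 with CAPH2 #2, 48.5 with SMC2 #1 and 54.8 with SMC2 #2, so all 4 condensin libraries were above GFP and SMC1. The deacetylase gene Sirt1 was likewise higher with CAPH2 (0.47 ± 0.0868, adjusted p = 0.0217) and with SMC2 (0.52 ± 0.0870, adjusted p = 0.0153), as were the damage-sensing kinase genes Atr with CAPH2 (0.37 ± 0.0916, adjusted p = 0.0412) and Atm with SMC2 (0.46 ± 0.103, adjusted p = 0.032). The inhibitor gene Ppp1r13l was lower with SMC2 (-0.55 ± 0.116, adjusted p = 0.0266, but 0.04 with ERCC scaling). Of this list 7 genes were higher and 7 lower with SMC1 than with the condensin knockdowns, beside 22.9% and 20.5% of all genes. With ERCC scaling these were 1 and 0, beside 1272 and 148 of the 14843 genes tested. With TMM scaling Hipk2 (0.92 ± 0.0961) was higher and Mdm4 (-0.66 ± 0.0889), Trim24 (-0.48 ± 0.0740) and the checkpoint kinase gene Chek1 (-0.55 ± 0.0856) were lower. ERCC scaling put these last 3 at -0.25, -0.063 and -0.13.

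The cell cycle genes downstream of p21 were lower or not called in the comparisons with GFP with TMM scaling. With ERCC scaling, by contrast, none of the 14 was called in edgeR, and 12 were above 0 with SMC1, 11 with CAPH2 and 14 with SMC2. Under it 0 had an unadjusted p under 0.05, beside 4250 (SMC1), 427 (CAPH2) and 735 (SMC2) of the 14843 genes tested. With SMC1, 7 of 14 were lower and 0 higher, beside 23.1% and 24.8% of all genes, with a median log2 change of -0.29. Mybl2, a transcription factor gene of proliferating cells, had an RPKM of 213 with GFP, 57.3 with SMC1, 152 with CAPH2 #1, 168 with CAPH2 #2, 163 with SMC2 #1 and 172 with SMC2 #2. It fell by 1.90 ± 0.103 with SMC1 (adjusted p = 3.31e-06, edgeR), and E2f1 by 0.93 ± 0.107 (adjusted p = 0.000133), the B-type cyclin gene Ccnb2 by 0.69 ± 0.0945 (adjusted p = 0.000339) and the spindle checkpoint gene Bub1b by 0.34 ± 0.0856 (adjusted p = 0.0088), while ERCC scaling gave -1.03 for Mybl2, -0.049 for E2f1, 0.19 for Ccnb2 and 0.53 for Bub1b. The list's median with SMC1 was then 0.58, below the shift of 0.88 of all genes. With CAPH2, 3 were lower beside 3.44% of all genes, E2f1 (-0.54 ± 0.0892), Mybl2 (-0.41 ± 0.0843) and Ccnb2 (-0.35 ± 0.08), and with SMC2, 2 were lower beside 2.69%, E2f1 (-0.44 ± 0.0892) and Mybl2 (-0.34 ± 0.0845), which ERCC scaling turned to 0.16 and 0.26. Against the condensin knockdowns 6 were lower and 1 higher with SMC1, beside 20.5% and 22.9% of all genes, Mybl2 (-1.53 ± 0.0881), E2f1 (-0.44 ± 0.0874), Ccnb2 (-0.36 ± 0.0766) and Bub1b (-0.36 ± 0.0694) among the lower, with Ccnb2 at 0.06 and Bub1b at 0.052 under ERCC scaling. This list did not share the difference between the CAPH2 hairpins, with a median log2 ratio of -0.072 and 3 of 14 genes higher with CAPH2 #1. Between SMC2 and CAPH2, 0 genes of the 3 lists were called in edgeR, with 3, 2 and 0 unadjusted p-values under 0.05, beside 465 of the 14843 genes tested.

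**Figure D4:**
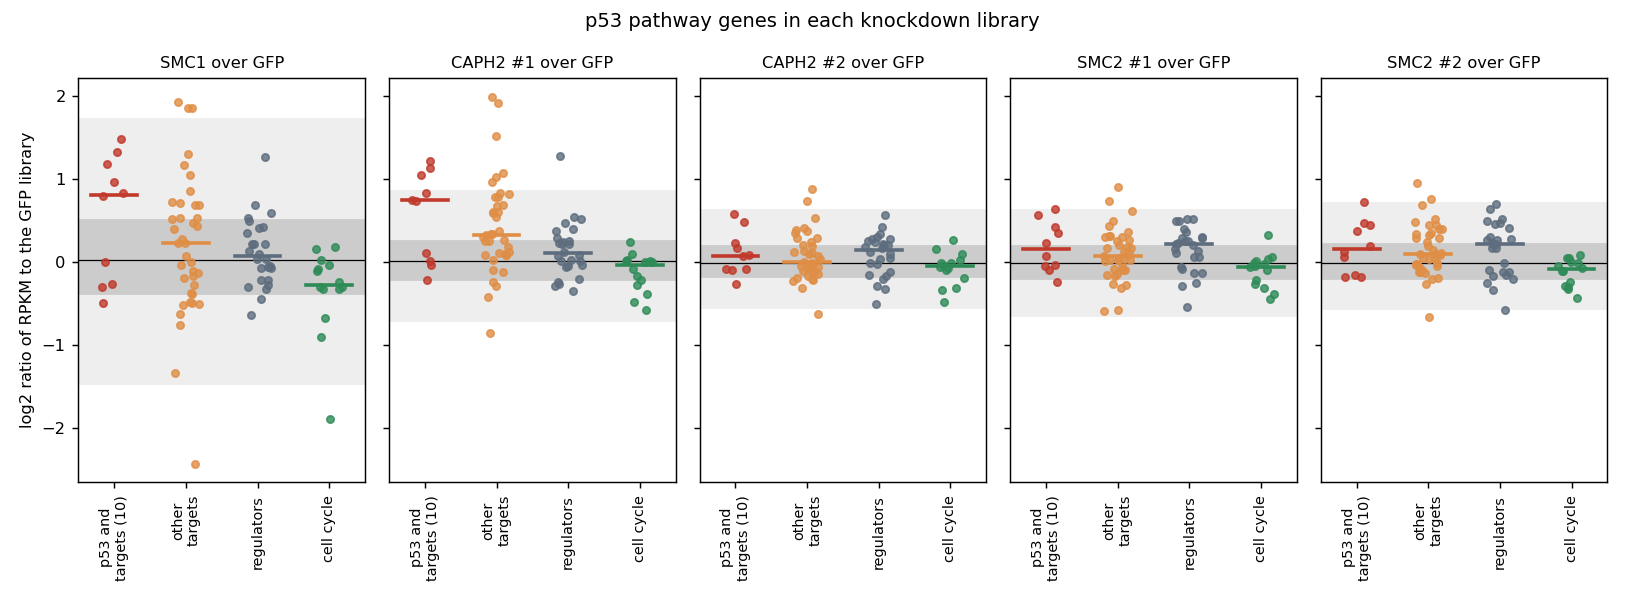
Log2 ratio of RPKM to the GFP library (y axis) of p53 and its 9 targets, 38 other targets, 26 regulators and 14 cell cycle genes in each knockdown library, with 1 point per gene, a bar at each list's median, and grey bands for the middle 50% (dark) and 90% (light) of all genes. The median of the 10 genes is 0.81 with SMC1 and 0.74 with CAPH2 #1 but 0.067 to 0.15 with the other hairpins, and the ratios use the deposited RPKM, which does not take the ERCC RNAs into account.

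The genes whose levels followed Cdkn1a most closely over the 6 libraries, by Pearson's r of log2(CPM + 1) among 11417 genes with a mean of at least 100 counts, were Sptlc1 (r = 0.9972), Parp10 (0.9959) and Axl (0.9933). Axl, a receptor tyrosine kinase gene, had an RPKM of 5.86 with GFP, 15.0 with SMC1, 11 with CAPH2 #1 and 6.49 to 6.96 with the other 3 hairpins. Those closest to Mdm2 were Jpt2 (0.9942), Ddias (0.9926) and Ap3m1 (0.9854), and Ddias, which encodes an inhibitor of apoptosis after DNA damage, had an RPKM of 12.9 with GFP, 17.2 with SMC1, 18.3 with CAPH2 #1, 13.6 with CAPH2 #2, 14.9 with SMC2 #1 and 14.8 with SMC2 #2. With only 6 libraries, which share depth and scaling, these values describe likeness alone.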

How the data were processed

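V6.5 ESC RNA was measured by RNA-seq in 6 libraries. The submitters' processing notes name Bowtie and mm9, and the authors deposited raw counts of exonic reads and RPKM values per RefSeq transcript (26073 transcripts and 92 ERCC RNAs); the deposited RPKM values are those counts per exon length and library size, without the ERCC RNAs. A shared exon can count for several transcripts, so 1 transcript per gene was kept. Symbols came from RefSeq accessions for 25353 transcripts, and 720 had none. Counts were tested with edgeR 4.0.16 in R 4.3.3 (TMM, quasi-likelihood test, Benjamini-Hochberg adjustment, no covariates) over genes that reached 10 counts in 2 or more libraries, with ERCC rows left out. Total counts were 25467427 to 31337313 per library. Intervals and the other values were computed with Python 3.11.15, scipy 1.17.1, pandas 2.3.3 and numpy 2.4.6.

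The 10 genes and the 3 lists were chosen with earlier results of these data known. From each list the text names at most 4 genes per comparison, those with the smallest adjusted p under 0.05 whose mean count was 50 or more, and for Cdkn1a and Mdm2 the 3 genes most like each. CAPH2 #1 and CAPH2 #2 follow the study's hairpin identifiers, which the sample labels number differently. Counts were simulated for 14711 genes, with 100 genes changed 1.5-fold and 100 changed 2-fold. The change was the same in the SMC1 library and both CAPH2 libraries, and the SMC2 libraries had none. Every gene had the same spread (biological coefficient of variation 0.08), and differences between the CAPH2 hairpins as large as in the data were not simulated. The fit recovered 36 and 90 for SMC1 against GFP with 9 false calls, and 54 and 96 for CAPH2 against GFP with 11. It recovered 78 and 99 for SMC2 against CAPH2 with 5 false calls. For SMC1 against condensin it called 5 and 45 with 2 false calls. There the change was smaller than 1.5-fold or 2-fold, because CAPH2 carried it too. The alternatives were library totals, DESeq2 size factors, ERCC scaling, DESeq2 1.42.0, other filters, all transcripts, leaving out each CAPH2 or SMC2 library, and a replicate block. Leaving the SMC1 or the GFP library out of the fit, and the shares of genes with a given order of libraries, were chosen after seeing the data. Deviations of condensin libraries that share a number had a correlation of 0.0415.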

Additional observations from a re-analysis of the deposited data

How the results depend on the processing

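The sign and call of the 10 genes over the 5 comparisons were recomputed under each alternative, giving 620 tested values, of which 537 kept both, 20 lost a call, 36 gained one and 27 changed sign. ERCC scaling accounts for 17 of the changes of sign. It moved the median of all genes by 0.88 (SMC1 against GFP), 0.34 (CAPH2 against GFP), 0.59 (SMC2 against GFP), 0.40 (SMC1 against condensin) and 0.26 (SMC2 against CAPH2). Under it Trp53, Bbc3, Bax and Zmat3 were at 0.56, 0.36, 0.59 and 0.86 for SMC1 against GFP and at 0.20, 0.12, 0.20 and 0.36 for SMC1 against condensin. Trp53, Bbc3 and Bax were at 0.26, 0.088 and 0.30 for CAPH2 and 0.46, 0.40 and 0.49 for SMC2 against GFP, and Trp53, Bax and Pmaip1 at 0.20, 0.19 and 0.053 for SMC2 against CAPH2. The genes called under ERCC scaling were 1904 (SMC1; 94.3% of them higher, against 51.7% with TMM), 5 (CAPH2) and 0 (SMC2; 735 at an unadjusted p under 0.05) against GFP and 1420 for SMC1 against condensin (89.6% higher, against 52.7%), with 0 of the 10 genes lower with SMC1, 0 higher with CAPH2, and 1 higher and 0 lower for SMC1 against condensin. DESeq2 gave 770 genes for CAPH2 against GFP and 7 for SMC2 against CAPH2, and among the 10 genes 3 higher with SMC1, 0 higher with CAPH2 and 0 lower for SMC1 against condensin. Without a count filter 2094 genes were called for CAPH2, 1779 for SMC2 and 6 for SMC2 against CAPH2, with 4 and 2 of the 10 higher with CAPH2 and SMC2. Library totals and an RPKM of at least 1 in GFP each gave 1 gene for SMC2 against CAPH2 and 1 of the 10 lower for SMC1 against condensin, and the latter put Zmat3 at 0.044 with SMC1. The cause of these shifts was not tested.

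Leaving out each CAPH2 or SMC2 library gave 5 to 3546 genes for CAPH2 against GFP, 1 to 3069 for SMC2 against GFP and 1 to 344 for SMC2 against CAPH2. Of the 10 genes, 0 to 6 were higher with CAPH2, 0 to 4 higher with SMC2, 3 to 6 higher and 1 to 3 lower for SMC1 against condensin, and 0 to 6 lower for SMC2 against CAPH2. An arm left with 1 library was assumed to vary like the other groups. Zmat3 was at -0.083 with CAPH2 without CAPH2 #1, at -0.029 with SMC2 without SMC2 #2, and ran from -0.051 (without CAPH2 #2), with -0.046 without SMC2 #2, to 0.13 (without CAPH2 #1) for SMC2 against CAPH2. Trp53inp1 was at -0.01 for SMC1 against condensin without CAPH2 #2. For SMC2 against CAPH2, Mdm2, Trp53inp1, Pmaip1 and Phlda3 were at 0.22, 0.10, 0.22 and 0.14 without CAPH2 #1 and at -0.67, -0.51, -0.42 and -0.50 without CAPH2 #2. The replicate block over the 4 condensin libraries called 61 genes, 2 of the 10 lower with SMC2. Hairpin numbers do not pair cultures, and the correlation of same-numbered deviations was 0.0415. No paired analysis was possible against GFP or SMC1 because these are single libraries.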
